A study of Homo sapiens with 15 samples.

Results

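Exposure to 0.25 µM martinostat was compared with no treatment in K562 cells, an established human line of chronic myeloid leukaemia in which the BCR-ABL fusion kinase is active. The comparison took up 6 of the 15 libraries of the study, 3 from cells given 0.25 µM for 24 h and 3 from untreated cells, chosen by the dose in their labels. The remaining 9 libraries were from cells given 0.15, 0.5 or 1 µM for 24 h, and the neighbouring doses served here to place the levels seen at 0.25 µM. Poly(A) RNA was sequenced and counted per gene, the replicates were described as independent biological ones, and all of them come from a single cell line. The labels name no vehicle and no time for the untreated cells.

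Martinostat inhibits histone deacetylases (HDACs), the enzymes that remove acetyl groups from histone tails and from other proteins. Removal of these groups by HDACs within corepressor complexes keeps many genes silent, and an inhibitor of them therefore changes the output of genes of many kinds. K562 cells are immature erythroid cells that make embryonic and foetal globins, and the red cell programme is driven by factors such as GATA1 and KLF1. Inhibitors of this class are known to halt the cell cycle, with CDKN1A, the inhibitor of cyclin-dependent kinases also called p21, as the best studied target.

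Totals were 29555379, 32805574 and 32593881 counts in the untreated libraries and 26660886, 26212119 and 31141230 at 0.25 µM. Levels are given in CPM, a gene's counts relative to its library's total after scaling by edgeR's trimmed mean method (TMM), and a gene was called at an adjusted p under 0.05 in edgeR's quasi-likelihood test over all 23711 genes tested. The label K562 was checked on 11 markers, of which 10 had means of at least 100 CPM in untreated cells, up to 1228 CPM (TFRC). The exception was HBE1, the embryonic epsilon globin, at a mean of 0.17 CPM, where 90.0% of its annotated exon bases lie under exons of other genes and its count is uncertain. Of the 19 tested markers of other cell types, 12 were called higher at 0.25 µM and 2 lower, against 37.4% and 24.8% of all genes. Their summed level was 1687 to 1952 CPM without the drug and 5135 to 7446 CPM at 0.25 µM, mostly from KRT8, KRT18 and VIM. NCAM1, CDH5, CD2, MS4A1 and COL3A1 had 0 counts in all untreated libraries. What part other cells had in the results was not tested.

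Library 3, from the replicate numbered 3 at 0.25 µM, stood apart from the other libraries of its dose. Across genes its log2 CPM had a Pearson correlation of 0.969 with library 1 and 0.970 with library 2, which correlated with each other at 0.981, and the untreated libraries among themselves at 0.985 to 0.987. Among 10109 genes of at least 10 CPM at this dose, library 3 was over 2-fold above both others in 126 and over 2-fold below both in 164. For library 1 these numbers were 5 and 7, and for library 2 they were 1 and 0. The 100 genes with most counts took up 15.0% of library 3 and 19.3% and 19.4% of the others.

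Library 3 at 0.5 µM also departed from its own group. Over 9322 genes of at least 10 CPM at both doses, the gap between library 3 and the mean of the other libraries correlated between the doses at r = 0.878, a description across genes that share the library of each dose. All 436 of these genes in which library 3 lay over 2-fold from the mean of the others at 0.25 µM lay on the same side at 0.5 µM. GOLGA8A and F3, the tissue factor gene, were high in both libraries, and RN7SL1, the RNA of the signal recognition particle, and the nuclear RNA MALAT1 were low in both. The labels name no batch that these libraries share, and what set them apart was not tested.

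**Figure D1:**
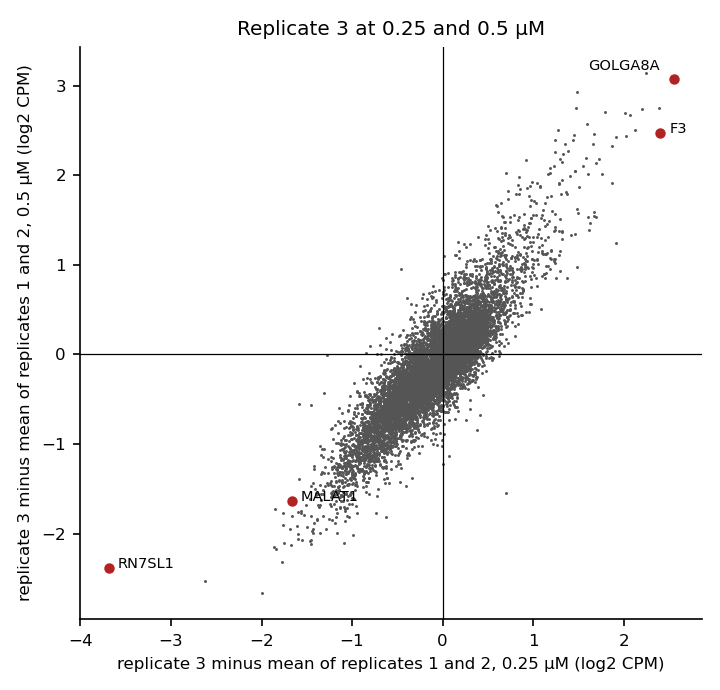
Each point is one of 9322 genes of at least 10 CPM at 0.25 and at 0.5 µM. The axes give log2 CPM of replicate 3 minus the mean of replicates 1 and 2, at 0.25 µM (horizontal) and at 0.5 µM (vertical), and the points run along the diagonal (r = 0.878).

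At 0.25 µM, 14761 of the 23711 genes (62.3%) were called against untreated cells, 8873 higher (37.4%) and 5888 lower (24.8%), and 10795 (45.5%) were called with a change over 2-fold, 7691 higher (32.4%) and 3104 lower (13.1%). In 16010 genes (67.5%) the 3 treated and the 3 untreated libraries did not overlap. The split depended on how the libraries were scaled, since the TMM factors were 0.784 to 0.828 in untreated cells and 1.07 to 1.28 at 0.25 µM. With library totals alone, 11697 genes were called higher and 3067 lower, with TMM from genes of at least 10 CPM 11182 and 3673, and with relative log expression (RLE) size factors 9068 and 5633. The median log2 change over all genes was 0.32 with TMM, 0.36 with RLE size factors, 0.73 with TMM from genes of at least 10 CPM and 0.85 with library totals. TMM gave the lowest of these medians, so the other scalings could hardly remove a call of a higher level and tested only the calls of a lower one. All 8873 genes called higher were also called higher under the other 3 scalings, and 3067 genes (12.9%) were called lower under all 4. Since every call of a higher level held under all 4 scalings, only the members called lower are counted below under all 4 scalings as well, and library totals add further higher calls in many groups. The shares over all genes of 37.4% higher, 24.8% lower and 12.9% lower under all 4 scalings are the background of each count. A gene of low untreated level could enter the test only where it was high, which raises the share called higher in groups of such genes.

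The direction of change, with TMM, differed by the level in untreated cells. Of the 3066 genes with at least 100 CPM in untreated cells 74.2% were called lower and 3.95% higher, and of the 4445 genes of 1 to 10 CPM 13.3% and 40.6%. There were 269 genes with 0 counts in all 3 untreated libraries that reached at least 1 CPM in each library at 0.25 µM, 229 of them protein-coding. A single gene went the other way, from at least 10 CPM in all untreated libraries to under 1 CPM in all treated ones, the long noncoding RNA ENSG00000288046. Among 5055 long noncoding RNAs 44.6% were called higher and 5.74% lower, and among 15640 protein-coding genes 37.6% and 33.3%. Long noncoding RNAs held 1.45 to 1.61% of the counts in untreated cells and 3.57 to 3.78% at 0.25 µM.

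**Figure D2:**
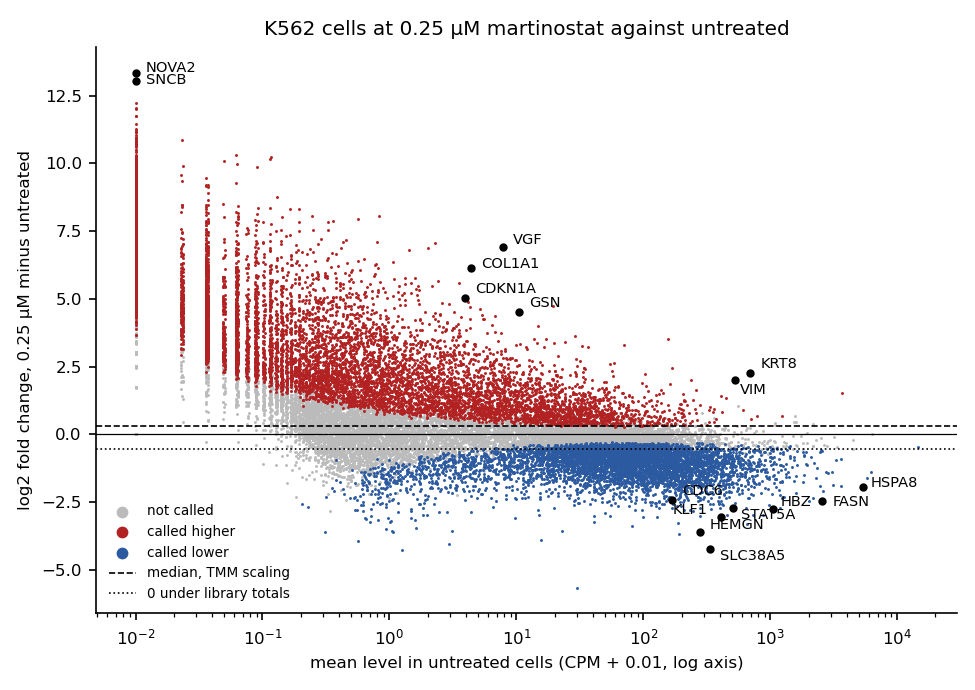
Each point is a tested gene, with its mean level in untreated cells (CPM plus 0.01, log axis) against its log2 fold change at 0.25 µM under TMM scaling, coloured by call. Genes of high level lie mostly below 0 and genes of low level above it, the fitted change at the left edge (no counts in untreated cells) depends on the prior count, and the dotted line marks where 0 would lie under library totals.

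The promoters of 6 of the genes described below are shown because the results on the cell cycle, BCR-ABL, red cell and neuronal genes turn on them: CDKN1A, SNCB and VGF rose, and STAT5A, KLF1 and HEMGN fell. Each sequence runs from 250 bases before to 50 after the gene's start, as given by RefSeq on GRCh38.p14, in the direction of transcription, and capitals mark matches on either strand to GGGCGG (the GC box), CCAAT (the CCAAT box), GATAA (the GATA site), CACCC (the CACCC box), TATAAA (the TATA box) and CACGTG (the E box). The windows are chr6:36678464-36678763 for CDKN1A (plus strand), chr17:42287189-42287488 for STAT5A (plus strand), chr19:12887152-12887451 for KLF1 (minus strand), chr9:97944803-97945102 for HEMGN (minus strand), chr5:176630485-176630784 for SNCB (minus strand) and chr7:101165520-101165819 for VGF (minus strand).
CDKN1A: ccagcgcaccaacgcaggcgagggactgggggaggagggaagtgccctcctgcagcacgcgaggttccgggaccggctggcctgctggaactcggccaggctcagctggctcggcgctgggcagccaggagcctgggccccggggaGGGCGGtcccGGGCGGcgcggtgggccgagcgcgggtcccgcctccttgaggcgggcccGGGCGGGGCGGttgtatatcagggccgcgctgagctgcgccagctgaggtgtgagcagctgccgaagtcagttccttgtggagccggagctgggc
SNCB: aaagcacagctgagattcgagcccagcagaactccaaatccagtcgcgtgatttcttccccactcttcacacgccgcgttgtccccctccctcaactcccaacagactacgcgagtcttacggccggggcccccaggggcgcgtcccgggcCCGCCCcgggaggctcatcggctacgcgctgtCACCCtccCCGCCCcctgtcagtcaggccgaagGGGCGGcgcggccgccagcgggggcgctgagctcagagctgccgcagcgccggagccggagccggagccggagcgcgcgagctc
VGF: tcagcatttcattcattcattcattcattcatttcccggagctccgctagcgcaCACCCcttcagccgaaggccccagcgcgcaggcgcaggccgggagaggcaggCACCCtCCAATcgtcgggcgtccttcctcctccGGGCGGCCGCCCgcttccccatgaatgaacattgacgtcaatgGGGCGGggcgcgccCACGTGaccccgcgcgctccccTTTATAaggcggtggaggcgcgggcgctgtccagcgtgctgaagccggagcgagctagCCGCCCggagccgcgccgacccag
STAT5A: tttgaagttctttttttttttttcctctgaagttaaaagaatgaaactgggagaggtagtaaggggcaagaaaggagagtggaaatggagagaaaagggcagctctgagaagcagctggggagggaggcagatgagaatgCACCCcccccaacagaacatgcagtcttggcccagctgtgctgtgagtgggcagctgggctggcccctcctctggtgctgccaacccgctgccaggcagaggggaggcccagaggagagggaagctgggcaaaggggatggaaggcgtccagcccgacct
KLF1: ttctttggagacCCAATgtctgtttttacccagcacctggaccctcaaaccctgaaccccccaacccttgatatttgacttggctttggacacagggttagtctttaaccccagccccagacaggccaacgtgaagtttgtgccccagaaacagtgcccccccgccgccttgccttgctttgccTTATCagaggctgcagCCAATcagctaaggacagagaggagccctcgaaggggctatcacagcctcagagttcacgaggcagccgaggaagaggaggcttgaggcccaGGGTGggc
HEMGN: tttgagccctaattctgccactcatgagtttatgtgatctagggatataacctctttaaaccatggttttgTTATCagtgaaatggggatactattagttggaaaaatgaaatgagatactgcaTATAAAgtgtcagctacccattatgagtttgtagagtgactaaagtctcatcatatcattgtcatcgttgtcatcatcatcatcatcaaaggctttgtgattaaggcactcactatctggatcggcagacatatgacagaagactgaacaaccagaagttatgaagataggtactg

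The promoters of the genes that rose held 4 GC boxes (CDKN1A), 3 (SNCB) and 4 (VGF), and those of the genes that fell held 0. CDKN1A had 29 CpG dinucleotides in its window and SNCB and VGF had 35 each, against 3 in STAT5A, 6 in KLF1 and 2 in HEMGN. A GATA match was present once in KLF1 and once in HEMGN and in none of the other windows. A GC box was present in 44.6% of all 27305 promoters of this length and in 64.9% of the 14021 of tested genes. It was present in 61.1% of those of genes called higher and in 71.3% of those of genes called lower. The median number of CpG dinucleotides per window was 24 in tested genes, 21 in genes called higher and 27 in genes called lower. In both respects the contrast among the 6 promoters shown ran opposite to that over all called genes. GATAA was present in 23.2% of all promoters, 15.9% of those of tested genes, 17.6% of those of genes called higher and 13.1% of those of genes called lower. For CACCC the 4 shares were 58.9%, 63.8%, 67.2% and 60.9%. The other shares over all promoters were 35.7% for CCAAT, 12.0% for TATAAA and 7.43% for CACGTG. A match of letters does not show that a factor binds there.

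Among genes of at least 10 CPM in every untreated library, SLC38A5, which encodes a glutamine transporter, fell furthest of those with a symbol. It stood at 337, 326 and 348 CPM in untreated cells and at 22.7, 18.6 and 12.5 CPM at 0.25 µM, a log2 change of -4.23 (SE 0.29, edgeR adjusted p = 1.9e-09). PKLR, the red cell form of pyruvate kinase, went from 188 to 193 CPM down to 7.94 to 21.5 CPM (log2 change -3.67), with library 3 lowest. TYMS, thymidylate synthase, went from 74.9 to 86.0 CPM to 7.22 to 8.37 CPM (log2 change -3.37), and 47.9% of its exon bases lie opposite another gene. The groups did not overlap for any of these 3 genes. UBASH3A, PLD6 and KIF1A fell by 3.91, 3.54 and 3.30 on the log2 scale, and all of these changes were called under the 4 scalings and without library 3.

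Among genes already read at 1 CPM or more in every untreated library, VGF, a neuropeptide precursor, rose most of those whose groups did not overlap. It stood at 7.24, 7.14 and 9.04 CPM in untreated cells and at 1072, 1217 and 556 CPM at 0.25 µM (log2 change 6.92, SE 0.33, edgeR adjusted p = 5.0e-12). Library 3 was the lowest treated one, and without it the change was 7.22. COL1A1, the alpha 1 chain of type I collagen, went from 3.32 to 5.19 CPM to 251 to 345 CPM, SYNPO, an actin-associated protein, from 1.27 to 1.49 to 104 to 188 CPM, and CPXM1 from 1.60 to 2.40 to 214 to 274 CPM. DHRS2, a dehydrogenase of the short-chain family, rose from 1.60 to 3.31 to 118 to 126 CPM. ADGRB2, MEIS3 and CLCA1 rose by 5.76, 5.59 and 5.58 on the log2 scale.

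Of the genes with no count in untreated cells, SNCB (beta-synuclein) reached 53.2, 53.9 and 29.6 CPM and NOVA2, a neuronal splicing factor, 45.9, 43.9 and 22.1 CPM. Set against the level that 3 counts over the untreated group would give, these means were at least 1153-fold and at least 944-fold higher. SLC9A7P1, CYP4F22, SLC32A1 (the vesicular transporter of inhibitory amino acids), SEPTIN3, ALPG (a placental-type alkaline phosphatase) and PPP2R2C followed, at least 527, 464, 459, 383, 382 and 313-fold higher. Library 3 had the lowest value in each of them except SLC9A7P1.

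In CPM gained, VIM and KRT8 were among the first 8 genes. VIM, the intermediate filament vimentin, went from 445, 553 and 570 to 1858, 2366 and 2088 CPM, and KRT8, keratin 8, from 689, 670 and 732 to 4476, 3386 and 2174 CPM. CD24, a surface glycoprotein, went from 145, 162 and 163 to 1687, 1905 and 1793 CPM. The groups of these 3 genes did not overlap, and in KRT8 library 3 was the lowest treated one. FN1 (fibronectin), HSPA5 (the chaperone of the endoplasmic reticulum) and the nuclear RNA NEAT1 rose by 2.47, 0.68 and 2.01 on the log2 scale. MALAT1 rested largely on libraries 1 and 2, at 13160 and 14390 CPM against 4340 in library 3 and 3235 to 4101 in untreated cells. In addition 83.7% of its exon bases lie opposite another gene. The losses in CPM were led by HSPA8, HSP90AB1, ENO1, NPM1, YBX1, FASN, SET and TUBB, which fell by 1.39 to 2.46 on the log2 scale.

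Red cell genes moved in both directions. Of 14 erythroid transcription factors 7 were called lower and 4 higher, and these 11 calls held under all 4 scalings. Their median log2 change was -0.47, against 0.32 over all genes, and with library totals 7 were called higher and 7 lower, with a median of 0.05 against 0.85. HEMGN, a nuclear protein of erythroid precursors, stood at 246, 316 and 276 CPM in untreated cells and at 18.6, 22.0 and 28.8 CPM at 0.25 µM (log2 change -3.59, SE 0.19, edgeR adjusted p = 1.6e-11). KLF1, the factor that activates adult globin and many red cell genes, went from 439, 377 and 404 to 65.0, 49.3 and 33.7 CPM (log2 change -3.04). LMO2 and GFI1B, both partners of GATA1 in erythroid complexes, fell by 2.71 and 1.81 on the log2 scale. GATA1 itself fell less, from 326, 335 and 323 to 204, 168 and 146 CPM (log2 change -0.92, SE 0.15, edgeR adjusted p = 3.6e-05), and the groups did not overlap. NFE2, SOX6 and FOXO3 rose by 0.54, 0.59 and 0.32, and TAL1 and MYB had changes of 0.10 and 0.23 that did not pass the test.

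Of these 14 factors, 8 were lower at 0.25 than at 0.15 µM (7.32% of all genes) and 11 were higher at 0.25 than at 0.5 µM (16.0% of all genes). GATA1 stood at 286 to 344 CPM at 0.15 µM and at 14.2 to 16.6 CPM at 0.5 µM. The libraries at 0.25 µM lay between them, with a log2 difference of -0.86 from the lower and 3.48 from the higher dose (edgeR adjusted p = 0.0014 and 6.3e-11). NFE2, the haematopoietic subunit of the NF-E2 factor, was at 375 to 536 CPM at 0.15 µM, 333 to 447 at 0.25 µM and 14.4 to 15.7 at 0.5 µM. MYB and TAL1 were 2.72 and 2.36 log2 units higher there than at 0.5 µM.

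Of the 9 tested globin genes 4 were called lower, 3 of them under all scalings. HBZ, the embryonic zeta globin, stood at 986, 1090 and 1081 CPM in untreated cells and at 185, 216 and 68.3 CPM at 0.25 µM (log2 change -2.75, without library 3 -2.37). HBA1, HBD and HBQ1 fell by 1.56, 1.30 and 1.11, the last of them not without library 3 (adjusted p = 0.15). The foetal globins HBG1 and HBG2 had log2 changes of -0.65 and -0.74 that did not pass the test, and the near-identical pairs HBG1 and HBG2 or HBA1 and HBA2 share reads, so their split is uncertain. Library 3 was the lowest treated library for HBZ, HBA1, HBQ1, HBG1 and HBG2 but not for HBD, with a median gap of -1.17 log2 units from the other treated libraries over globins of at least 10 CPM, against -0.08 over all genes.

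Among 18 genes of the red cell membrane and cytoplasm, 9 were called lower, 4 of them under all scalings, and 3 higher. GYPC, glycophorin C, fell by 2.98 on the log2 scale, from a mean of 456 to 57.8 CPM, and SPTB, a spectrin chain, fell by 1.18. KEL and SLC4A1, the anion exchanger band 3, rose by 0.88 and 1.89. In heme synthesis 5 of 10 genes were called lower, 3 of them under all scalings, with UROD at -2.03 and SLC25A38 at -1.80, and ALAD rose by 1.12. The median of this group was -0.47 with TMM and 0.06 with library totals. ALAS2, the erythroid enzyme of the first step, had a change of -0.38 that did not pass the test. In iron handling 6 of 12 were lower, 3 of them under all scalings, with TFRC, the transferrin receptor, from a mean of 1228 to 373 CPM, and the ferritin genes FTH1 and FTL at 0.12 and 0.40, not called.

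Of 18 megakaryocyte and platelet genes 12 were tested, and 11 of these were called higher and 1 lower, the last under all scalings. Of 17 stem and myeloid genes 15 were tested, with 12 higher and 1 lower with TMM, the last not under all scalings. Over all genes 37.4% were called higher, and 52.4% of those at untreated levels above 0 to 1 CPM, and a gene of low level could pass the filter only where it was high, so the counts of tested members say little about the groups. ITGB3, the beta 3 integrin of platelets, went from a mean of 0.294 to 11.8 CPM, THBS1 from 11.8 to 110 CPM, KIT from 6.41 to 37.9 CPM, and SPI1, the myeloid factor PU.1, from 32.7 to 83.4 CPM. VWF had 2 counts in untreated cells in all and 346 at 0.25 µM, a ratio of 134.8 (exact 95% interval 37.05 to 1118, counting error only). TUBB1, the platelet tubulin, fell by 2.58, and CD33 had a change of -0.42, called with TMM and not under all 4 scalings.

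**Figure D3:**
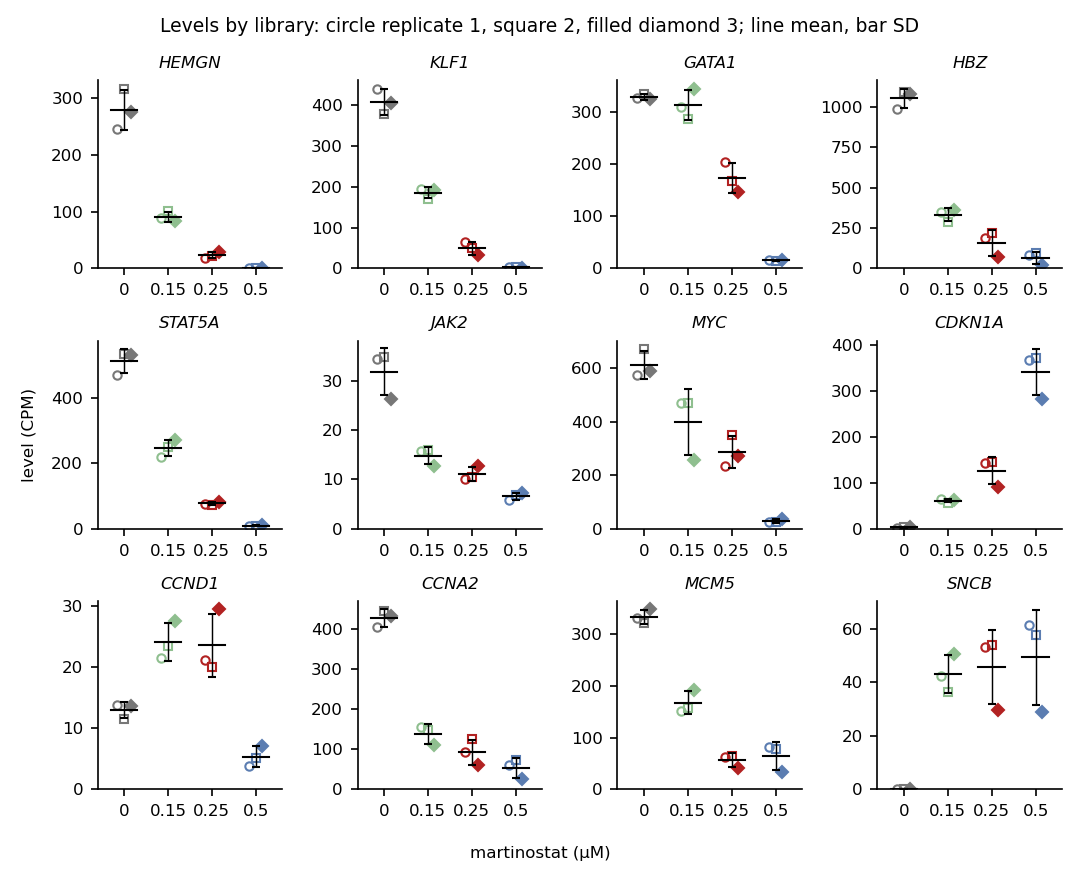
Level (CPM, linear axes from 0) of 12 genes in each library of untreated cells and of cells at 0.15, 0.25 and 0.5 µM. Symbols give replicates 1, 2 and 3, the line the mean and the bar the SD, and HEMGN, KLF1, GATA1, STAT5A and MYC stood lower at 0.25 µM than in untreated cells and lower still at 0.5 µM, while CDKN1A stood higher at each dose.

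The genes of the BCR-ABL pathway that the study names were all called lower, 6 of 6, though only JAK2 and STAT5A under all 4 scalings. STAT5A, a transcription factor that BCR-ABL activates, stood at 468, 534 and 529 CPM in untreated cells and at 76.4, 74.2 and 83.1 CPM at 0.25 µM (log2 change -2.71, SE 0.16, edgeR adjusted p = 5.7e-11), and library 3 lay with the others. JAK2 went from 34.3, 34.8 and 26.3 to 10.0, 10.6 and 12.8 CPM (log2 change -1.51). BCR and ABL1, whose counts can include the fusion transcript, had log2 changes of -0.70 and -0.54 with TMM and of -0.19 and -0.03 with library totals, which were not called. STAT5B changed by -0.85 with TMM and was not called with library totals, and PIK3CA changed by -0.51 with TMM and by 0.02, in the other direction, with library totals. Since the study chose these genes on these samples, their direction is not independent evidence.

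Other genes of the JAK-STAT pathway moved in both directions. Of 14 STAT targets and JAK-STAT genes 7 were called higher and 2 lower, 1 of the latter under all scalings, with a median log2 change of 0.25. The feedback inhibitors SOCS1, SOCS2 and SOCS3 rose by 2.15, 1.13 and 1.51, and the kinase gene PIM1 by 0.83, while CISH, a classical STAT5 target, had a change of -0.09 that did not pass the test. JAK3 went from a mean of 0.0933 to 9.69 CPM. Among 16 genes of the ERK pathway and its feedback 5 were called higher and 4 lower, near the shares over all genes (37.4% and 24.8%), and library totals gave 10 higher and 1 lower, FOSL1, which was lower under all scalings. DUSP4, DUSP5 and EGR1 rose by 2.66, 1.84 and 1.86, and FOSL1 fell by 2.59. MYC stood at a mean of 610 CPM in untreated cells and at 286 CPM at 0.25 µM, a log2 change of -1.09 with TMM and of -0.57, not called, with library totals.

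Most cyclins and kinases of the cell cycle fell. Of 10 named in the study, which are no independent evidence for the same reason, 9 were called lower and 1 higher, under all 4 scalings and without library 3. CCNA2, the cyclin of S phase and G2, stood at 405, 447 and 433 CPM in untreated cells and at 92.4, 125 and 61.7 CPM at 0.25 µM (log2 change -2.20, SE 0.30, edgeR adjusted p = 1.1e-05). CCNE1, CCNE2, CDK2, CDK4 and CCNB1 fell by 2.10, 1.82, 1.75, 1.71 and 1.70, and 44.2% of the exon bases of CDK4 lie opposite another gene. CCND1, the G1 cyclin, rose, from 13.8, 11.5 and 13.7 to 21.3, 20.1 and 29.6 CPM (log2 change 0.86), and at 0.5 µM it was at 3.80 to 7.12 CPM. The study lists CCND1 among the cyclins with reduced mRNA, without naming a dose in its text, so this dose ran the other way.

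Of the 5 CDK inhibitors 3 rose under all scalings. CDKN1A stood at 2.86, 3.82 and 5.01 CPM in untreated cells and at 144, 145 and 92.3 CPM at 0.25 µM (log2 change 5.02, SE 0.24, edgeR adjusted p = 4.6e-12), between 57.2 to 64.7 CPM at 0.15 µM and 284 to 371 CPM at 0.5 µM. CDKN1C (p57) went from 20.4, 15.0 and 18.6 to 114, 91.6 and 69.3 CPM, and CDKN2D (p19) from 1.43, 2.01 and 1.68 to 6.64, 5.33 and 4.41 CPM. CDKN1B (p27) and CDKN2C (p18) were called lower with TMM, with log2 changes of -0.37 and -0.58, CDKN1B changed sign with library totals (0.16), and CDKN2C was not called without library 3.

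The E2F and RB families and the machinery of DNA replication fell with the cyclins. Of 13 E2F and RB genes 11 were called lower, 9 of them under all scalings. Of 38 DNA replication genes 37 were called lower (24.8% of all genes and 74.2% of those of at least 100 CPM), 35 of them under all 4 scalings, with a median log2 change of -1.69. MCM4, MCM5 and MCM7, subunits of the replicative helicase, went from means of 639, 334 and 1280 to 96.7, 56.9 and 258 CPM. CDC45, which joins the helicase at origins, fell by 2.54 and PCNA, the sliding clamp, by 2.08. The only replication gene not called was RPA3, with a change of -0.37. Of 36 genes of mitosis and the kinetochore 31 were called lower, 28 of them under all scalings, with MAD2L1 and AURKA down by 2.35 and 2.04 and CDC20 and PTTG1 at -0.62 and -0.45, not called.

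Some replication genes were lower at 0.25 µM than at either neighbouring dose. In all, 124 genes (0.523%) were lower at 0.25 µM than in untreated cells, at 0.15 µM and at 0.5 µM, each step with its own test, and 49 of them passed all steps under all 4 scalings. Of the 38 replication genes 6 were among the 124, namely CDC6, CDT1, ORC1, PCNA, POLA1 and CLSPN, and 5 of these held under all scalings. All 6 also held when library 3 was left out at 0.25 and at 0.5 µM together. CDC6, which loads the helicase at origins, stood at 153, 182 and 166 CPM in untreated cells, 61.2, 69.8 and 69.4 at 0.15 µM, 29.6, 33.7 and 29.4 at 0.25 µM and 79.4, 81.8 and 40.3 at 0.5 µM. The log2 difference from 0.15 µM was -1.11 and that from 0.5 µM was -1.12 (edgeR adjusted p = 0.0014 and 0.00025). CDT1, the partner of CDC6, went from 392, 400 and 506 CPM untreated and 391, 332 and 444 CPM at 0.15 µM to 160, 170 and 76.0 CPM, and rose to 327, 375 and 112 CPM at 0.5 µM. Library 3 was low at both of the last doses.

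CDK2, CCNE1 and CCNE2, the kinase and cyclins that open S phase, were lowest at 0.25 µM as well, but not under all 4 scalings. SREBF1, the factor that drives fatty acid synthesis, stood at 210, 226 and 229 CPM in untreated cells, 75.7, 69.8 and 56.1 at 0.25 µM and 190, 216 and 163 at 0.5 µM. Of the genes that averaged 10 CPM or more over the 15 libraries, the 4 with the deepest minimum were CDC6, CDT1, SREBF1 and the centriolar gene TEDC2, which stood at 11.2, 10.7 and 7.41 CPM at 0.25 µM.

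Another 81 genes (0.342%) were highest at 0.25 µM, 71 of them under all 4 scalings. PI16, a peptidase inhibitor, stood at 0.626 to 1.06 CPM in untreated cells, 71.5 to 107 at 0.15 µM, 278, 190 and 196 at 0.25 µM and 22.3 to 39.9 at 0.5 µM. FOXI1, a transcription factor of ion-transporting epithelia, reached 25.6, 27.9 and 19.5 CPM against 7.38 to 11.6 at 0.15 µM and 9.32 to 10.5 at 0.5 µM. VIM, at 1387 to 1449 CPM at 0.15 µM and 1101 to 1279 at 0.5 µM, was of the same kind, as was RUNX1, a factor of blood stem cells, from a mean of 111 CPM untreated to 259 CPM. Of the genes that averaged 10 CPM or more over the 15 libraries, UXT-AS1 was one of the 4 with the largest smaller step to the neighbouring doses, and it was highest at 0.25 µM under TMM and not under all 4 scalings. Of these genes EIF3CL had the largest such step, but stood at 61.5, 30.2 and 4.63 CPM, so that library 3 lay at the untreated level of 4.74 to 6.22 CPM, and it has a near-identical copy, EIF3C, with which it can share reads.

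**Figure D4:**
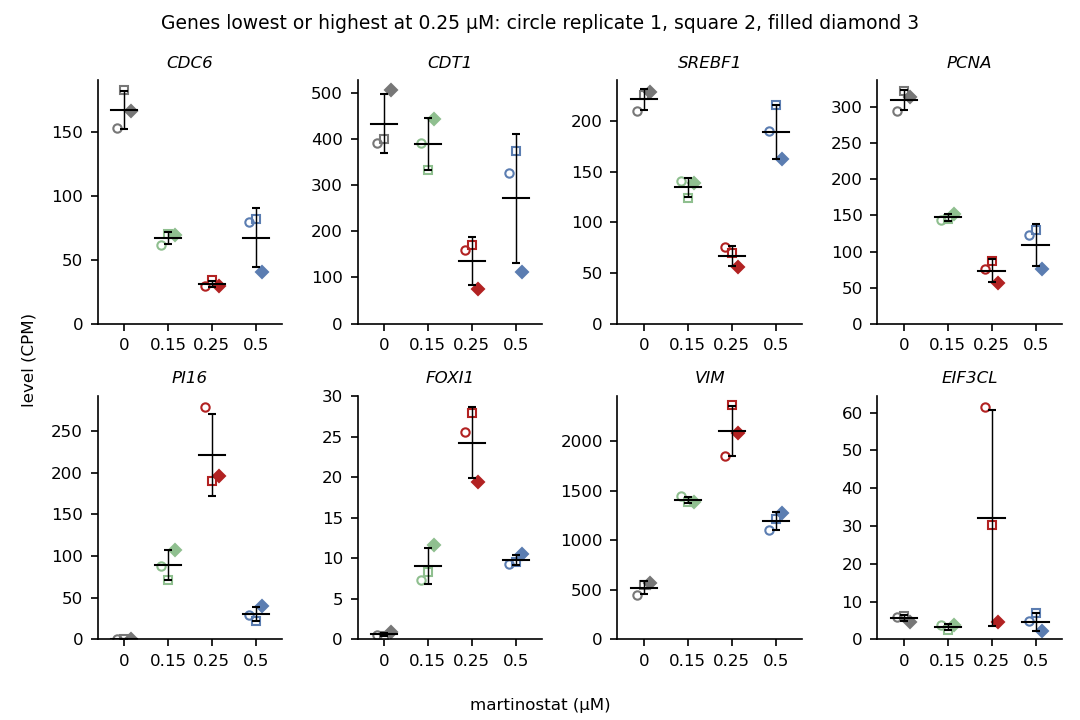
Level (CPM, linear axes from 0) in each library of untreated cells and of cells at 0.15, 0.25 and 0.5 µM, for 4 genes lowest at 0.25 µM (CDC6, CDT1, SREBF1, PCNA) and 4 highest there (PI16, FOXI1, VIM, EIF3CL). Lines are means and bars SD, replicate 3 is the filled diamond, and the libraries at 0.25 µM spread widely in EIF3CL.

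Genes of ribosome assembly fell. All 25 ribosome biogenesis genes were called lower under all 4 scalings and without library 3, with a median log2 change of -1.75. Over all genes 24.8% were called lower, and over those of at least 100 CPM in untreated cells 74.2%. NPM1 (nucleophosmin) and NCL (nucleolin), the main nucleolar proteins, went from means of 3592 and 2477 to 969 and 656 CPM, and NOP16 and UTP20 fell by 2.50 and 2.39. Of these genes 15 were lower at 0.25 than at 0.15 µM. Of 53 mitochondrial ribosomal proteins 52 were called lower, 39 of them under all scalings, with MRPL3 and MRPL19 down by 2.10 and 1.90. The 43 cytosolic ribosomal proteins moved less. With TMM 24 of them were called lower, 14 without library 3 and 6 under all 4 scalings, with a median of -0.55. Library 3 lay 0.67 log2 units below the other treated libraries in their median.

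Genes of polyamine metabolism moved in both directions. ODC1, the rate-limiting decarboxylase, SRM and SMS, the spermidine and spermine synthases, and AMD1 fell by 2.33, 2.96, 1.86 and 1.74. SAT1 and SMOX, which acetylate and oxidise polyamines, rose by 2.23 and 2.37, and the antizyme inhibitor AZIN2 rose by 3.89. In all 5 of 12 polyamine genes were called lower, 4 of them under all scalings, and 6 higher. Of 23 heat shock genes 16 were called lower, 13 of them under all scalings, and 3 higher. Their summed level in untreated cells was 18970 to 21590 CPM, and 74.2% of all genes of at least 100 CPM there were called lower. The mitochondrial chaperonins HSPD1 and HSPE1 fell by 2.33 and 2.58, HSPH1 by 2.73 and HSF1, the factor that drives the group, by 1.26, while the small heat shock gene HSPB8 rose by 4.42.

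Of 21 glycolysis genes 11 were called lower, 9 of them under all scalings, and 4 higher. Together they held 16640 to 18580 CPM in untreated cells, and of all genes of at least 100 CPM there 74.2% were called lower. HK2 and LDHA fell by 2.25 and 1.77, and the isoforms ENO2 and ALDOC rose by 2.83 and 2.23. Of 22 genes of cholesterol and fatty acid synthesis 13 were called lower, 10 of them under all scalings, led by FASN (fatty acid synthase, from 2418, 2264 and 3038 to 524, 579 and 304 CPM) and ACACA (-1.83), whereas SQLE rose by 0.35. In the integrated and endoplasmic reticulum stress group 9 of 23 were called lower and 9 higher, all of them under all scalings. The members that fell included ATF5, TRIB3, PSAT1 and ATF4 (-3.01, -1.84, -1.83 and -1.18), and those that rose HERPUD1, PDIA4 and HSPA5 (1.32, 0.90 and 0.68), and ATF3 (1.95).

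Of 15 NRF2 and antioxidant genes 6 were called lower, 3 of them under all scalings, and 2 higher. TXNIP, which binds thioredoxin, and ARRDC4 rose by 1.28 and 2.00. Of 12 listed metallothionein genes and their regulator 7 were tested, 6 of them called higher and 1 lower, the last not under all scalings. MT2A went from a mean of 1.73 to 33.0 CPM, and MT1G, with 0 counts in untreated cells, was at least 216-fold higher. These genes resemble each other closely and their split is uncertain.

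**Figure D5:**
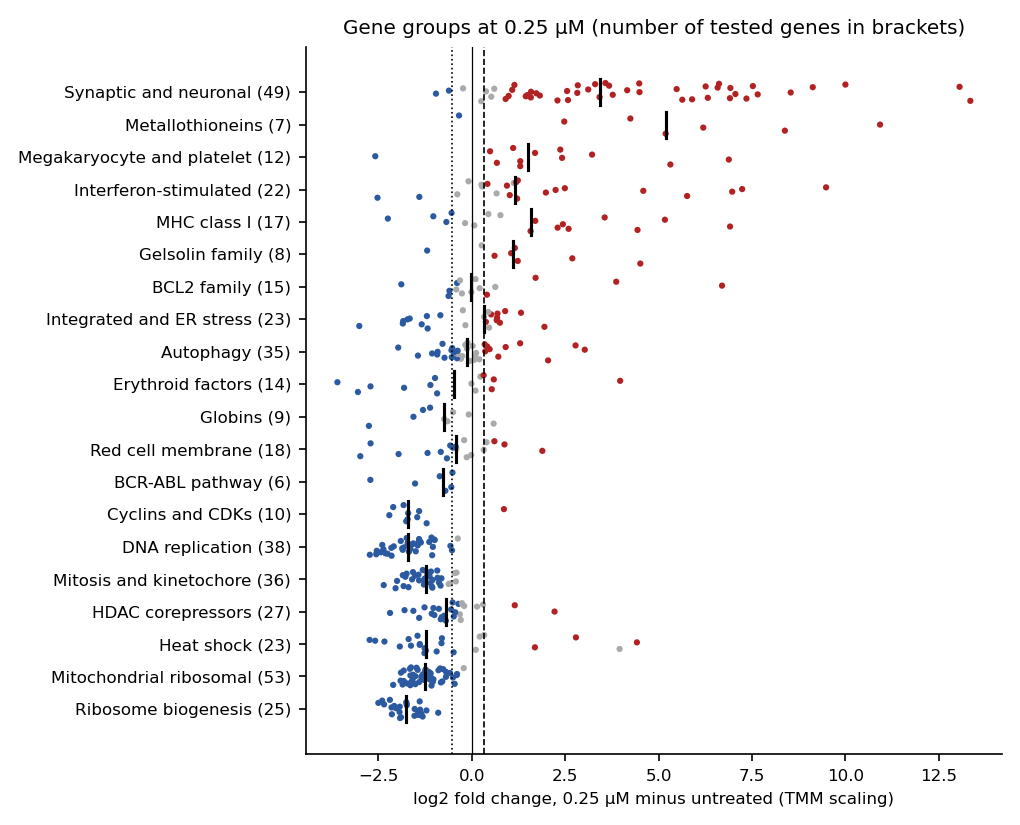
Log2 fold change at 0.25 µM (TMM scaling) of each tested member of 20 gene groups, coloured by call (red higher, blue lower, grey not called), with the group median as a black bar and the number of tested genes in brackets. The dashed line marks the median of all genes (0.32) and the dotted line where 0 would lie under library totals. The medians of ribosome biogenesis (-1.75) and DNA replication (-1.69) lie left of both lines, and that of the neuronal genes (3.42) lies to the right. Genes of low untreated level could pass the filter only where they were high, which raises the medians of groups with many such genes.

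Among the 11 HDAC genes, some of whose products martinostat acts on, 4 were called lower and 2 higher. HDAC2 and HDAC7 fell under all scalings, from means of 333 to 158 CPM and 140 to 46.3 CPM, and HDAC3 and HDAC4 fell by 0.71 and 0.81 with TMM but not under all 4 scalings. HDAC6, the cytoplasmic tubulin deacetylase, went from 53.4, 55.1 and 57.3 to 108, 106 and 97.6 CPM and HDAC11 rose by 1.21. HDAC1 had a change of -0.19 that was not called. Of 27 corepressor subunits 19 were called lower, 8 of them under all scalings, and 2 higher. CHD3, MTA2 and MTA1 of the NuRD complex were down by 2.18, 1.80 and 1.56. Library totals gave 5 higher and 8 lower, with a median of -0.17 against 0.85 over all genes. Of 10 acetyltransferases 7 were called lower, 5 of them under all scalings, with KAT2A and HAT1 down by 1.79 and 1.70 and EP300 at -0.26, not called. For both groups the share over all genes depends on level. Of genes of 10 to 100 CPM in untreated cells 46.3% were called lower, and of those of at least 100 CPM 74.2%. HEXIM1, the inhibitor of P-TEFb, rose from a mean of 46.1 to 112 CPM.

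HMG proteins, which bend or loosen chromatin, were called lower in 7 of 10 cases, 6 of them under all scalings, and higher in 2. The log2 changes of the group ran from -2.14 to 3.56, and HMGB1 went from a mean of 843 to 191 CPM. Together they held 5164 to 5796 CPM in untreated cells, and of all genes of at least 100 CPM there 74.2% were called lower. In the gelsolin family of actin-severing proteins 6 of 8 rose and FLII fell. GSN, gelsolin, went from a mean of 10.4 to 238 CPM. Of 18 genes of tubulins, tubulin acetylation and stathmins 8 were called higher and 7 lower, 3 of the latter under all scalings. TUBA1B and TUBB, used in most dividing cells, fell by 1.82 and 1.40, and TUBB2B, TUBB4A, TUBB3 and TUBA1A rose by 4.89, 4.26, 3.58 and 3.41.

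Of 54 synaptic and neuronal genes 49 were tested. Of these 42 were called higher and 2 lower, 1 of the latter under all scalings, with a median log2 change of 3.42. The 42 were also called higher without library 3. The other scalings could hardly remove a call of a higher level, so they did not test these 42. SYN1 (synapsin I), MAPT (tau) and SYP (synaptophysin) went from means of 0.828, 10.0 and 10.5 to 41.5, 98.9 and 62.9 CPM. REST, the repressor of neuronal genes, stood at a mean of 55.3 CPM in untreated cells and at 45.0 CPM at 0.25 µM, a change of -0.30 that was not called. Most members had untreated levels under 10 CPM, where the share of all genes called higher was also above that at high levels.

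Genes of MHC class I presentation rose in 9 of 17 cases and fell in 4, 1 of them under all scalings. HLA-B went from a mean of 2.49 to 54.0 CPM, HLA-E from 29.2 to 144 CPM and TAP1, the peptide transporter, from 4.14 to 22.5 CPM, and B2M, the light chain, had a change of 0.07 that was not called. HLA genes are alike in sequence and their split is uncertain. Of 22 tested interferon-stimulated genes 14 were called higher and 2 lower, 1 of the latter under all scalings, with IFI6 from 1.31 to 71.5 CPM, and IFIT2 down by 2.52. Among 9 ligands of natural killer receptors 6 rose and 3 were called lower with TMM but not under all 4 scalings, and ULBP3, with 0 counts in untreated cells, was at least 100-fold higher. Of 16 AP-1 genes 9 rose, among them FOS (3.44) and JUN (2.13), and 4 were called lower, 3 of them under all scalings, with FOSL1 at -2.59. ID1, ID2 and ID3, inhibitors of helix-loop-helix factors, rose by 3.36, 4.36 and 4.00.

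Genes of cell death were called in both directions, as were genes overall (37.4% higher and 24.8% lower). Of 15 tested BCL2 family members 4 were called higher, BMF, HRK and BIK of the death-promoting kind and the protective BCL2L1, and 4 lower, of which BID alone was called under all scalings and without library 3. BMF went from a mean of 2.80 to 41.0 CPM. BIK had 1 count in untreated cells in all and 173 at 0.25 µM, a ratio of 134.8 (exact 95% interval 23.9 to 5356). MCL1 had a change of -0.01 that was not called. Of 18 death receptor and caspase genes 8 were called higher, among them BIRC3 (5.60) and APAF1 (1.04), and 5 lower, 3 of them under all scalings, among them CYCS (-1.28) and CASP6 (-1.01). Among 15 p53 target genes 7 rose, such as GADD45B and BTG2 (2.94 and 1.93), and 4 were lower, of which CCNG1 (-1.60) under all scalings.

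Of the 6 autophagy and apoptosis genes that the study names 4 were called higher, and this list too was chosen on these samples. LAMP2, a lysosomal membrane protein, went from 314, 341 and 350 to 616, 744 and 672 CPM (log2 change 1.02), and PINK1, the mitophagy kinase, rose from a level of 14.2 to 16.9 CPM in untreated libraries by 1.41 on the log2 scale, with 39.5% of its exon bases opposite another gene. SQSTM1, the receptor p62, had a log2 change of -0.36 with TMM and 0.15 with library totals, neither called, at 134, 116 and 78.3 CPM against 135 to 147 in untreated cells, and stood at 390 to 669 CPM at 0.5 µM. BAD had a change of 0.63, also not called, and its treated libraries spread from 6.33 to 24.4 CPM.

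Of 35 tested autophagy genes 10 were called higher and 13 lower, 3 of the latter under all scalings. OPTN and ATG16L2 rose by 2.78 and 3.03, and ATG3 fell by 1.44. Of 25 lysosomal genes 9 were called higher, close to the share over all genes (37.4%), with NPC2, GRN and CTSB up by 2.55, 1.77 and 1.63, and 5 lower, of which LAMP1 (-1.38) and CTSZ (-1.25) under all scalings. In this group 13 were lower at 0.25 than at 0.5 µM, against 14.4% of all genes. Of 9 transporters that handle imatinib or related drugs 1 was called higher and 2 lower, 1 of the latter under all scalings. ABCB1 (P-glycoprotein) rose from a mean of 0.275 to 9.11 CPM and ABCC4 fell by 1.54, and ABCG2 had a change of -0.06 that was not called. The 4 alkaline phosphatase genes all rose, with ALPL from a mean of 0.557 to 140 CPM. Together they held 0.309 to 0.736 CPM in untreated cells, so they could pass the filter only where they were high. Their count therefore says little about the group.

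Between 0.15 and 0.25 µM 2911 genes (12.3%) were called, 1175 higher at 0.25 µM (4.96%) and 1736 lower (7.32%), and between 0.25 and 0.5 µM 7211 (30.4%), 3802 higher at 0.25 µM and 3409 lower. In a fit of the last 2 groups alone with the replicate number as a block 9935 genes were called, 5064 above and 4871 below, and without the block 4841. Of 1448 genes called against untreated cells and both neighbours, 522 lay above untreated cells and 0.15 µM and below 0.5 µM, and 662 lay below the first pair and above 0.5 µM.

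Library 3 decided several calls among the genes in which it lay furthest from the other libraries at 0.25 µM. RSRP1 stood at 59.4, 51.8 and 255 CPM, MIR223HG at 12.6, 13.4 and 73.9 CPM and ENSG00000280614 at 8.54, 7.73 and 58.5 CPM. The 3 genes were called with library 3 and not without it (adjusted p = 0.2, 0.11 and 0.13 in edgeR). Their calls were lost under other alternatives too. Among these were RSRP1 without untreated replicate 1, 2 or 3, MIR223HG without untreated replicate 3 and ENSG00000280614 without untreated replicate 2. GOLGA8A and GOLGA8B, near-identical copies that may share reads, were at 74.8 and 68.8 CPM in library 3 and at 10.2 to 15.8 CPM in the others, and neither was called. F3 rose with library 3 or without it, from 0.409 to 0.509 CPM in untreated cells to 7.90, 6.48 and 38.2 CPM. On the low side, CD36, a fatty acid receptor of erythroid precursors, was at 52.6, 65.7 and 8.11 CPM against 197 to 247 in untreated cells and fell with or without library 3. RN7SL1 was at 722, 294 and 35.7 CPM, ALB at a mean of 14.5 CPM with library 3 at 3.48 CPM, RPL13P12 at 26.3, 18.8 and 3.53 CPM and ENSG00000215156 at 15.5, 12.4 and 2.80 CPM, and none of these 4 was called, although ENSG00000215156 was called higher without library 3 (log2 change 1.01).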

How the data were processed

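Poly(A) RNA of K562 cells was sequenced as paired 100-base reads. The authors trimmed the reads with Trim Galore 0.6.10 and Trimmomatic, aligned them to hg38 with HISAT2 2.2.1 and SAMtools 1.21, and deposited counts per gene (featureCounts 1.5.3, GENCODE annotation) and FPKM values. Whether counting used strand is not given in the sources used here. Of 60649 gene identifiers 60463 were matched to a symbol and position by identifier, and the 37 mitochondrial genes were at 0 in every library.

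Deposited counts were tested with edgeR 4.0.16 (R 4.3.3) in one fit of all 15 libraries with group as the only term, filterByExpr, TMM factors and the robust quasi-likelihood F test, and p-values were adjusted by Benjamini and Hochberg over 23711 genes. FPKM values were used on the log2 scale with pseudocounts of 1 and 0.1 in limma 3.58.1 as alternatives, as was DESeq2 1.42.0. Figures and promoter matches were made with Python 3.11.15. The test was also run on simulated counts in which few genes changed, equally up and down, and no library stood apart. That setting differs from these data, so it cannot bear on the choice of scaling or on library 3, and its outcome is not reported here. The replicates were described as independent biological ones of a single cell line, and p-values measure the spread between them.

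Named genes were those of the study's own text, the members of fixed lists with the largest changes or a needed role, and the 8 genes with the lowest and highest change, the highest level from 0 counts and the largest gain and loss of CPM. Added were the 4 genes with the clearest maximum or minimum at 0.25 µM, by the smaller step to the neighbouring doses of those that averaged 10 CPM or more over the 15 libraries, and the 6 with library 3 furthest above or below the others, among genes of at least 10 CPM at that dose. The members and lists were chosen with earlier results of these data known. The values of some genes of these lists are not reported here. A fold against 0 counts was set against 3 counts over the untreated group (0.0395 CPM), and the exact 95% intervals of ratios cover counting error only.

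Same-numbered libraries were compared by the correlation of their deviations from the group means. It was 0.266, 0.268 and 0.579 between 0.25 and 0.5 µM, where the number was taken to pair the libraries, and -0.062 to 0.088 against untreated cells and -0.048 to 0.006 against 0.15 µM, where it was not. Replicate 1 at 0.5 µM also correlated with replicate 2 at 0.25 µM, at 0.236. These values therefore do not show that the number pairs the libraries, and no label says that it does.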

Additional observations from a re-analysis of the deposited data

How the results depend on the processing

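All results above used TMM and all 15 libraries. The number of genes called lower fell from 5888 to 3067 with library totals, 3673 with TMM from genes of at least 10 CPM, and 3236 and 3153 with limma on log2(FPKM + 1) and log2(FPKM + 0.1). With at least 10 counts in every library, which tests fewer genes, 8851 genes were called, 4689 of them higher, and 4729 were over 2-fold. Over 2-fold there were 1613 and 5601 genes with limma at the pseudocounts of 1 and 0.1. DESeq2 called 15612 genes, 9949 higher and 5663 lower.

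Between 0.25 and 0.15 µM a fit of only these groups called 1866 genes and 571 with the replicate block. Against untreated cells the replicate block in all libraries gave 14750 genes, and in only the groups compared 12929 (13435 without it). Between 0.25 and 0.5 µM the replicate block in all libraries gave 7161 genes in place of 7211. Genes highest at 0.25 µM numbered 133 with TMM from genes of at least 10 CPM, 151 with DESeq2, and 352 and 284 with limma. Genes lowest there numbered 55 with library totals, 77 with TMM from genes of at least 10 CPM, and 46 and 55 with limma. Without replicate 3 at both 0.25 and 0.5 µM, an alternative chosen after seeing the data, the numbers were 122 and 196. The causes were not tested.

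Leaving out one library at a time gave 13654 to 14369 called genes against untreated cells, 8292 to 8757 higher, 5362 to 5612 lower and 10374 to 11010 over 2-fold. It gave 1704 to 2484 genes against 0.15 µM, 5810 to 8265 against 0.5 µM, 38 to 167 highest and 73 to 308 lowest. Of these, replicates 1, 2 and 3 at 0.15 µM (1802, 1870 and 1704) and replicate 2 at 0.25 µM (1940) moved the count against 0.15 µM by over 1.5 times. The genes highest were 43, 42 and 48 without these replicates at 0.15 µM, 38 without replicate 2 at 0.25 µM and 167 without replicate 3 at 0.5 µM. The genes lowest were 73 and 82 without replicates 1 and 2 at 0.15 µM, 75 without replicate 3 at 0.25 µM, and 73 and 308 without replicates 2 and 3 at 0.5 µM.

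Of 85 named genes 68 kept their sign and call under every alternative run. Leaving out one replicate at 0.25 µM in turn gave log2 changes from -0.70 (without replicate 3) to 1.08 for GOLGA8A, -1.55 to 0.10 (without replicate 3) for RN7SL1, -0.44 to 0.36 (without replicate 3) for ALB and -0.37 (without replicate 1) to 0.67 for RPL13P12. That of ALB was 0.34 with library totals, 0.26 with TMM from genes of at least 10 CPM, and 0.09 and 0.08 with limma. RPL13P12 turned to -0.09 and -0.08 with the replicate block in all libraries and in 2 groups. With library totals, TMM from genes of at least 10 CPM and limma at both pseudocounts, CDKN1B was at 0.16, 0.05, 0.09 and 0.14 and SQSTM1 at 0.15, 0.05, 0.10 and 0.13. PIK3CA was at 0.02 with library totals and 0.00 with limma at either pseudocount.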

Other observations

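Further groups at 0.25 µM are given here beside the shares over all genes, 37.4% higher, 24.8% lower and 12.9% lower under all 4 scalings. Of 16 Krüppel-like and related factors outside the red cell 6 were called higher and 6 lower, 2 of the latter under all 4 scalings. Of 17 tested genes of the TGF-beta and ID group 6 were called higher and 3 lower, 0 of the latter under all scalings, and library totals gave 10 higher and 0 lower. Of 10 BET and P-TEFb genes 3 were called higher and 3 lower, 0 of the latter under all scalings, and of 8 genes of REST and its partners 2 higher and 3 lower, 2 of the latter under all scalings. In the MYC network 2 of 11 tested genes were called higher and 6 lower, 1 of the latter under all scalings. Of 9 tested genes of the group of TXNIP, the arrestin-like proteins and thioredoxin 3 were called higher and 5 lower, 2 of the latter under all scalings.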
